A study of Mus musculus with 10 samples.

Results

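The CYP2C epoxygenases were followed as 6 genes of the mouse Cyp2c family, Cyp2c29, Cyp2c38, Cyp2c55, Cyp2c65, Cyp2c66 and Cyp2c68. They are 6 of the 18 Cyp2c genes among the 54838 genes listed in each library. The group was chosen by the expression of Cyp2c29, which was higher in the knockout crypts of these same libraries, so the difference between genotypes is described below for the 6 genes and no p-value is given for it. Libraries were made from jejunal crypts of 5 wild-type (WT) mice and 5 Arid3a conditional knockout (cKO) mice, with 1 library per animal. The cKO mice carried floxed Arid3a alleles and VillinCre-ERT2, a tamoxifen-inducible Cre recombinase that the Villin promoter drives in the intestinal epithelium only, so that other cells of the gut wall kept the gene. Both genotypes received tamoxifen on 3 consecutive days, and the tissue was taken 1 month after the first injection, with the villi scraped off before the crypts were released. The animal identifiers of the WT mice and those of the cKO mice come from separate series, so colony or litter and genotype cannot be told apart. ARID3A is a transcription factor that binds AT-rich DNA.

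CYP2C enzymes are cytochrome P450 monooxygenases of the endoplasmic reticulum. They add oxygen to arachidonic acid and other polyunsaturated fatty acids, which gives epoxyeicosatrienoic acids, and they also oxidise drugs and steroids. Each takes its electrons from cytochrome P450 reductase, and epoxide hydrolases turn the epoxides into diols. In the gut these enzymes are made mainly by enterocytes, the absorptive cells that mature as they move from crypt to villus, and in the liver the family is a classic target of the receptors PXR and CAR and of HNF4.

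The 6 genes lie together on chromosome 19. In the GENCODE annotation of GRCm38 the Cyp2c cluster spans chr19:38976647-40187333, which is 1211 kb, and holds 16 Cyp2c genes and pseudogenes. Cyp2c55 (chr19:39007019-39042693), Cyp2c65 (chr19:39061015-39093944), Cyp2c66 (chr19:39113898-39187072) and Cyp2c29 (chr19:39269405-39330713) follow one another on the plus strand, with a pseudogene, Cyp2c53-ps, that overlaps the start of Cyp2c29. Cyp2c38 (chr19:39389556-39463075) and Cyp2c68 (chr19:39688834-39741054) are on the minus strand. Cyp2c29 has up to 10 annotated exons and each of the other 5 has 9. Cyp2c23 lies outside the cluster, 3.82 Mb further along the chromosome. Cyp2c73-ps, also listed in the libraries, was not among the chromosome 19 genes of that annotation under that name.

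Since the 6 genes were higher in the same libraries, their promoters were read from RefSeq (GRCm38.p6), which held a start site for all 6. The windows below are 65 bases long and end 61 bases before the RefSeq start site, 5′ to 3′ on the strand of the gene. They are shown because they hold the letters CAAAGTC, a core of the sequence that HNF4 proteins bind, at a similar place in several of them, and capitals mark those letters, or CAAAGT in Cyp2c38, where the last letter differs. The Cyp2c29 start in RefSeq lies inside the longer gene that GENCODE draws. The positions are chr19:39006894-39006958 for Cyp2c55, chr19:39060881-39060945 for Cyp2c65, chr19:39113773-39113837 for Cyp2c66 and chr19:39286960-39287024 for Cyp2c29, all on the plus strand, and chr19:39463136-39463200 for Cyp2c38 and chr19:39741162-39741226 for Cyp2c68 on the minus strand.
Cyp2c55: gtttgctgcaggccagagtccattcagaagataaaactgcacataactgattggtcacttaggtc
Cyp2c65: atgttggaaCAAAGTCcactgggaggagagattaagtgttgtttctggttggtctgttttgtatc
Cyp2c66: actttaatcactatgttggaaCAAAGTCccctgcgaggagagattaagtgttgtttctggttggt
Cyp2c29: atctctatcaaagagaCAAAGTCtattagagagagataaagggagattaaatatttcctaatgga
Cyp2c38: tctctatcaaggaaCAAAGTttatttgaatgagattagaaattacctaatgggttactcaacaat
Cyp2c68: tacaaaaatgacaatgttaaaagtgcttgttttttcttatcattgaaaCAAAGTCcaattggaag

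CAAAGTC, searched on both strands from 250 bases before to 50 bases after the start site, was found in 4 of the 6 promoters and in 4.44% of 32851 mouse promoters of that length. It begins at -116 in Cyp2c65, -104 in Cyp2c66, -109 in Cyp2c29 and -77 in Cyp2c68, counted from the start site. The longer string CAAAGTCCA, which contains it, was found in Cyp2c65 and Cyp2c68 and in 0.475% of all promoters. Of other strings, ATTAAA, an AT-rich string of the kind ARID proteins bind, stood in 5 of the 6 promoters and in 13.9% of all. TATAAA, the letters of the TATA box, stood in 5 of 6 and 13.6%. It began at -29 in Cyp2c55, -19 in Cyp2c29 and -31 in Cyp2c38, but at -162 in Cyp2c65 and -150 in Cyp2c66. AGATAA, which GATA factors bind, stood in 2 of 6 and 11.2%. AGGTCA, a nuclear receptor half-site, stood only in Cyp2c29 among the 6 and in 16.3% of all promoters. GTTAAT, an HNF1 half-site, stood only in Cyp2c68 among the 6 and in 7.1% of all promoters. The strings may overlap one another and were chosen after the promoters had been seen. Cyp2c65 and Cyp2c66 are near copies and do not count as separate cases. A match says only that the letters are there.

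Total expected counts ranged from 27050455 to 31053622 per library. Arid3a, the deleted gene, had 1.92, 2.07, 2.75, 2.68 and 2.69 CPM (expected counts scaled to TMM-normalized library sizes) in WT replicates 1 to 5 and 0.303, 0.516, 0.490, 0.884 and 1.17 in the cKO replicates, with no overlap. Its log2 fold change, cKO minus WT as throughout, was -1.84 ± 0.32 (SE) (adjusted p = 0.00204, quasi-likelihood F-test of edgeR with p adjusted by Benjamini-Hochberg over all genes). Of 14719 genes tested, 28.3% passed an adjusted p of 0.05, 15.6% higher and 12.7% lower in cKO crypts, and in 12% every cKO library lay above every WT library.

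Cyp2c29, which makes epoxyeicosatrienoic acids from arachidonic acid and is best known from the liver, showed the widest difference of the 6. Its level in WT replicates 1 to 5 was 14.97, 6.92, 1.46, 5.39 and 6.001 CPM, and in cKO replicates 1 to 5 it was 32.4, 41.8, 44.0, 140.5 and 86.7 CPM. The lowest cKO library stood 2.16-fold above the highest WT library. The mean went from 6.95 ± 4.95 CPM (SD, n = 5) to 69.1 ± 45.1 CPM (SD, n = 5), a ratio of means of 9.94, and the log2 fold change was 3.31 ± 0.62 (SE). This placed it as number 7 of the 14719 genes by log2 fold change. The animals of a genotype differed much among themselves, 10.3-fold between the highest and lowest WT library and 4.33-fold between the cKO libraries. One cKO animal, replicate 4, carried the highest value, and without it the log2 fold change was 2.88. Without WT replicate 1, the highest of the WT libraries, it was 3.81. In bulk RNA of this kind, a change in the number of cells that make an mRNA and a change in the mRNA per cell cannot be told apart.

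Cyp2c38, the gene whose transcript is closest to that of Cyp2c29, was near the limit of detection in WT crypts, with 4 to 19 counts per library against 26 to 100 in cKO crypts. It had 0.662, 0.482, 0.238, 0.134 and 0.146 CPM in WT replicates 1 to 5 and 0.876, 1.66, 1.43, 3.40 and 3.44 CPM in the cKO replicates. The groups did not overlap, but the gap between them was narrow, 1.32-fold between the highest WT and the lowest cKO library. The log2 fold change was 2.69 ± 0.51 (SE), number 14 of all genes tested, and its size depended on how low values were handled. On the deposited TPM values with 1 added before taking logs it was 0.72.

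Cyp2c65, an intestinal member that also epoxidises arachidonic acid, was the most abundant and had the lowest coefficient of variation of the 6 in both groups, 28.98% in WT and 13.25% in cKO crypts. It had 83.0, 104.2, 57.1, 51.2 and 71.4 CPM in WT replicates 1 to 5 and 212.0, 181.6, 212.8, 260.8 and 232.2 CPM in the cKO replicates. All 5 cKO libraries lay above all WT libraries, and the highest and lowest cKO library differed by only 1.44-fold. The mean went from 73.4 ± 21.3 to 219.9 ± 29.1 CPM (SD, n = 5 each), with a log2 fold change of 1.58 ± 0.18 (SE).

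Cyp2c66, its near copy next along the chromosome, had 36.7, 46.1, 16.0, 11.9 and 23.0 CPM in WT replicates 1 to 5 and 99.8, 82.0, 95.3, 143.6 and 122.8 CPM in the cKO replicates. Again no library of one group fell within the range of the other. The log2 fold change was 2.02 ± 0.37 (SE).

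Cyp2c55, which oxidises arachidonic acid and is known to respond to PXR and CAR in the liver, had 23.3, 31.8, 8.96, 6.87 and 17.9 CPM in WT replicates 1 to 5 and 50.4, 50.6, 66.1, 107.8 and 98.5 CPM in the cKO replicates. The cKO libraries 4 and 5 stood well above the other 3, as they did for Cyp2c29 and Cyp2c38. The log2 fold change was 2.07 ± 0.44 (SE), between that of Cyp2c38 and that of Cyp2c66.

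Cyp2c68 had 31.5, 43.0, 19.2, 12.9 and 27.1 CPM in WT replicates 1 to 5 and 79.3, 70.6, 64.7, 88.7 and 89.0 CPM in the cKO replicates. It had the smallest log2 fold change of the 6, 1.55 ± 0.28 (SE), and again no overlap between the groups.

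Summed over the 6 genes, so that the way reads are divided among these 6 no longer matters (reads that Cyp2c68 shares with genes outside the sum still can), the expected counts came to 190.1, 232.6, 103.0, 88.4 and 145.5 CPM in WT replicates 1 to 5 and 474.8, 428.2, 484.4, 744.7 and 632.7 CPM in the cKO replicates. The WT mean of 151.9 ± 60.1 CPM stood against a cKO mean of 552.9 ± 131.8 CPM (SD, n = 5 each). Their ratio was 3.64, and the log2 fold change was 1.86 ± 0.28 (SE). Without Cyp2c29 in the sum the log2 fold change was 1.74, and with all 18 Cyp2c genes summed it was 1.86. The median log2 fold change of the 6 genes was 2.05, beside -0.03 over all genes tested. In the fit over all genes the 6 were all on the called side as higher, beside 15.6% of all genes, and all 6 had groups that did not overlap, beside 12% of all genes. Those counts follow from the choice of the genes and are no evidence of their own.

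**Figure D1:**
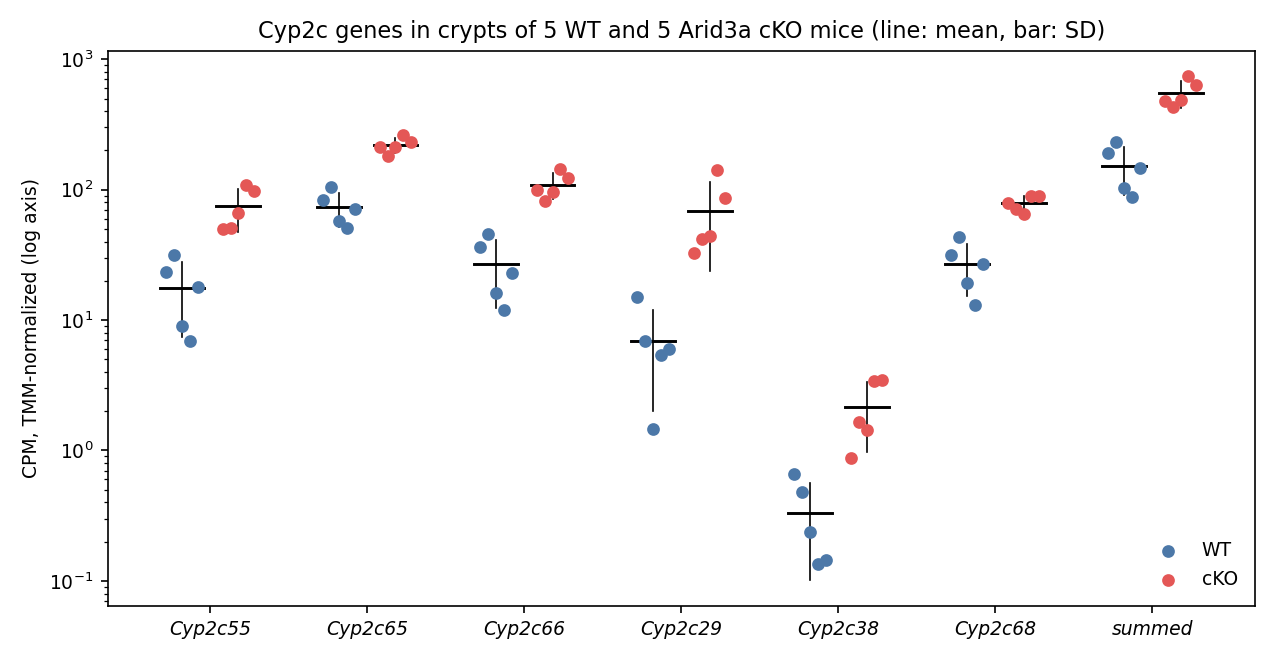
Level of each of the 6 Cyp2c genes and of their sum in CPM (log axis), with 1 point per library in the order of the replicate numbers, WT in blue and cKO in red, a line at the mean and a bar of 1 SD on either side. The cKO points lie above the WT points for every gene, with the widest spread for Cyp2c29 and the narrowest for Cyp2c65 and Cyp2c68 in cKO crypts.

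The animals were ordered alike for most of the family. WT replicate 2 was the highest and WT replicate 4 the lowest WT library for Cyp2c55, Cyp2c65, Cyp2c66 and Cyp2c68, and all 4 genes put the 5 WT animals in the same order. Cyp2c29 and Cyp2c38 departed from it, both with WT replicate 1 highest, and with WT replicate 3 lowest for Cyp2c29 and WT replicate 4 lowest for Cyp2c38. In cKO crypts replicates 4 and 5 were the top 2 libraries for all 6 genes.

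Levels of different genes were compared per transcript length, on the TPM values that the authors deposited, which scale each gene by its length. In WT crypts Cyp2c65 led with 51.5 ± 13.8 TPM (SD, n = 5), above every other member in all 5 libraries. Cyp2c66 with 21.6 ± 11.3 TPM and Cyp2c68 with 21.0 ± 8.65 TPM were not apart, since Cyp2c66 was the higher in only 2 of 5 libraries. Cyp2c55 followed with 11.9 ± 6.75 TPM, then Cyp2c29 with 5.33 ± 3.92 TPM and Cyp2c38 with 0.156 ± 0.111 TPM. The ranges of Cyp2c55 and Cyp2c29 overlapped across animals, although Cyp2c55 was the higher within each of the 5 libraries.

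In cKO crypts the order from the top was again Cyp2c65 (145.5 ± 24.5 TPM), Cyp2c66 (83.0 ± 21.6 TPM) and Cyp2c68 (58.4 ± 9.48 TPM). Cyp2c29 came next by its mean, 50.2 ± 35.0 TPM, ahead of Cyp2c55 with 47.8 ± 18.5 TPM, but it exceeded Cyp2c55 only in replicate 4. Cyp2c38 stayed last with 0.950 ± 0.534 TPM. The make-up of the family moved accordingly. Cyp2c29 made up 4.65 ± 2.62% (SD) of the summed TPM of the 6 genes in WT and 12.0 ± 4.88% in cKO crypts, while Cyp2c65 made up 47.9 ± 6.23% and 38.5 ± 4.19%. The shares of both genes overlapped between the groups, from 1.45 to 8.09% against 7.02 to 19.4% for Cyp2c29 and from 41.5 to 55.6% against 33.2 to 42.3% for Cyp2c65.

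**Figure D2:**
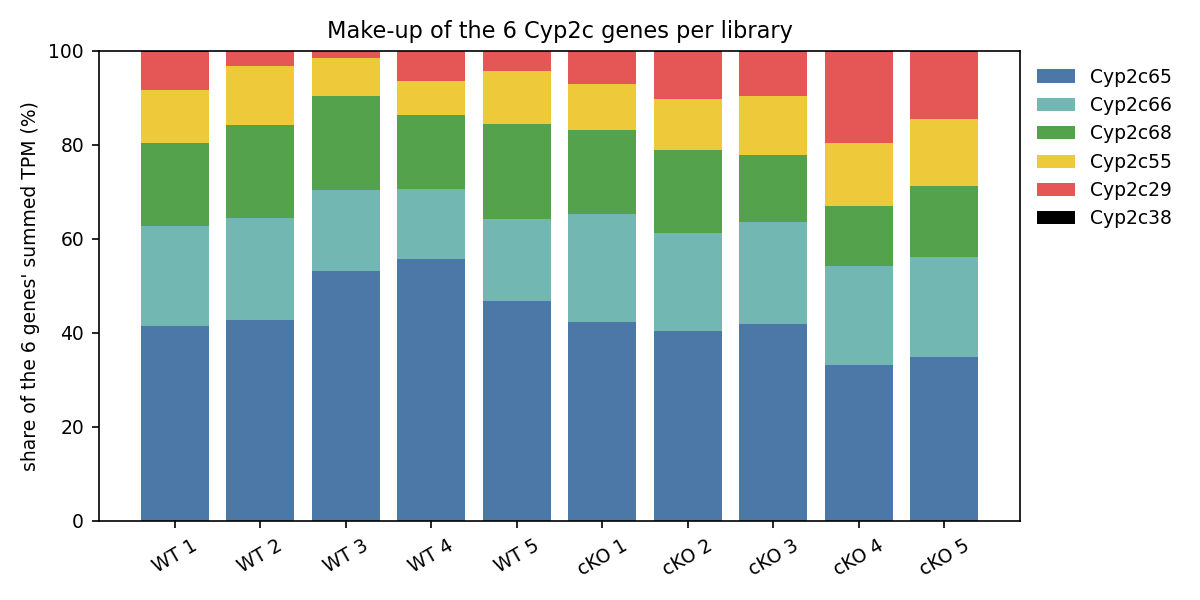
Share of each gene in the summed TPM of the 6 Cyp2c genes (linear axis, percent), as 1 stacked bar per library. Cyp2c65 is the largest part of every bar, and Cyp2c29 is largest in cKO replicate 4 with 19.4%; Cyp2c38 is too low to be seen.

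Markers of the villus enterocyte moved with the family. Of 15 such genes, 13 were higher in cKO crypts in edgeR's quasi-likelihood test, with log2 fold changes from 1.15 to 2.06. Of all genes tested, 15.6% were higher. Over all 15 the median was 1.80, and Nt5e with 0.58 and Slc28a2 with 0.51 did not pass. Among them were Apoa4, an apolipoprotein of chylomicrons, with 2.06 and an adjusted p of 0.0198, Sis, the sucrase-isomaltase of the brush border, with 1.80 and an adjusted p of 0.00686, and Alpi, the intestinal alkaline phosphatase, with 1.83 and an adjusted p of 9.81e-04. The summed level of the 15 genes ran from 1886 to 7543 CPM in WT and from 9591 to 17560 CPM in cKO crypts, without overlap. Its order over the WT animals was the order of Cyp2c55, Cyp2c65, Cyp2c66, Cyp2c68 and the summed family, and its 2 highest cKO libraries were replicates 4 and 5. Below those the cKO orders differed, with replicates 1, 2 and 3 in turn for the markers and 3, 1 and 2 for the summed family.

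Set against the summed level of those markers, the difference in the family was much smaller. That sum rests mostly on the abundant markers, such as Apoa4 with a cKO mean of 2507 CPM, and hardly on Nt5e with 6.36 CPM. Per 1000 CPM of the 15 villus markers, the 6 genes together had 34.8, 30.8, 35.7, 46.9 and 36.0 CPM in WT replicates 1 to 5 and 35.5, 32.4, 50.5, 42.4 and 36.4 CPM in the cKO replicates. The groups overlapped almost fully, with means of 36.9 ± 5.98 and 39.4 ± 7.16 (SD, n = 5 each) and a ratio of 1.07. Measured this way the ratio of means, cKO over WT, was 0.855 for Cyp2c65, 0.889 for Cyp2c68, 1.28 for Cyp2c66 and 1.34 for Cyp2c55. Cyp2c29 kept a ratio of 2.72, from 1.70 ± 1.06 to 4.63 ± 2.15 CPM per 1000 CPM of markers, and Cyp2c38 one of 1.96. The ranges of the 2 groups overlapped for each of the 6 genes. For Cyp2c29 the WT values were 2.74, 0.918, 0.506, 2.86 and 1.49 and the cKO values 2.43, 3.16, 4.59, 7.999 and 4.99, so 4 of the 5 cKO libraries lay above all WT libraries. By log2 fold change, Cyp2c29 and Cyp2c38 lay above each of the 15 markers, Cyp2c55 was level with the highest of them, and the other 3 lay among them. The group was chosen by the rise of Cyp2c29 in these libraries. Its place above the markers follows in part from that choice and is no evidence of its own.

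**Figure D3:**
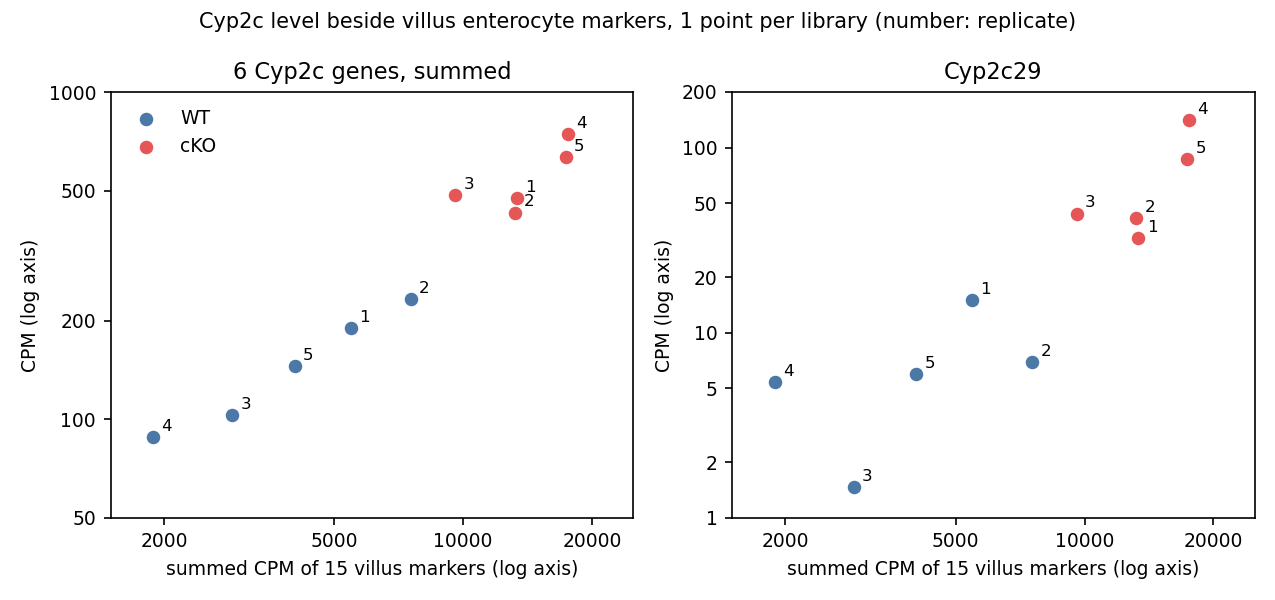
Summed CPM of the 6 Cyp2c genes (left) and CPM of Cyp2c29 (right) against the summed CPM of 15 villus enterocyte markers, all on log axes, with 1 point per library, its replicate number beside it, WT in blue and cKO in red. The summed family keeps a similar ratio to the markers in both groups, 36.9 and 39.4 per 1000 on average, while Cyp2c29 has means of 1.70 and 4.63 per 1000.

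Other markers bear on where the RNA came from. Liver is the main site of several of the 6 genes, and hepatocyte markers were scarce. Of 14 such genes 6 were at 0 in all libraries, among them the fibrinogen genes Fga, Fgb and Fgg, and 8 had at most 3 counts in every library. Alb, albumin, had 0.885 ± 0.402 CPM in WT crypts and 1.17 ± 0.363 CPM in cKO crypts (SD, n = 5 each), with an adjusted p of 0.371 in edgeR's quasi-likelihood test. The summed hepatocyte level ran from 25.9 to 36.4 CPM in WT and from 26.5 to 48.3 CPM in cKO crypts. That sum came mostly from Ttr and Cyp2e1. Of the 4 genes tested 1, Apoa2, was higher, beside 15.6% of all genes.

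Of 6 colon markers 4 were at 0 in all libraries, Aqp8 was higher in cKO crypts, and the sum ran from 4.98 to 6.23 CPM in WT and from 5.90 to 9.58 CPM in cKO crypts. None of 4 ileum markers passed the threshold, with 22.0 to 99.96 CPM in WT and 78.7 to 124.1 CPM in cKO crypts. Of 3 proximal markers, the iron exporter Slc40a1 was higher, with a sum of 210.8 to 243.9 CPM against 238.9 to 407.5 CPM. Among crypt base and proliferation genes 6 of 8 were lower in cKO crypts and among Paneth cell genes 4 of 6. Immune markers had 1 lower gene of 7, Jchain, and stromal and endothelial markers 2 of 7 tested, Acta2 and Pecam1. Over all genes 12.7% were lower and 15.6% higher. The summed stromal level was 131.6 CPM in cKO replicate 4, the library with the most Cyp2c29, and 18.03 to 35.8 CPM in the other 4 cKO libraries. The part of cell composition, gut position or that library's stroma in the Cyp2c values was not tested.

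The 6 genes are similar enough in sequence that the counting could blur them. Over their annotated transcripts, Cyp2c65 and Cyp2c66 were 96.2% identical, Cyp2c29 and Cyp2c38 87.9%, and the other pairs 71.4 to 76.5%. No stretch of 100 bases of Cyp2c29, Cyp2c38 or Cyp2c55 occurred in a transcript of another gene. Of Cyp2c65 7.82% and of Cyp2c66 9.34% of such stretches were shared, all of them with each other. Cyp2c68 shared 19.8% of its stretches, mainly with Cyp2c40 (16.7%), a gene with at most 11 counts in any library. Values of Cyp2c65, Cyp2c66 and Cyp2c68 are uncertain by the reads in those stretches, which RSEM divided between the copies.

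The transcript length that RSEM weights by isoform was not used to choose the genes and could be compared. It was fixed for 4 of the 6 genes. For Cyp2c29 it was 1793 ± 12.4 bases in WT and 1783 ± 0.644 bases in cKO crypts (SD over 5 animals each). The difference of -9.20 bases had p = 0.143 in a two-sided exact permutation test. For Cyp2c66 it was 1683 ± 3.56 and 1687 ± 3.71 bases, a difference of 3.73 bases with p = 0.143 in the same exact test. The adjusted p over both genes was 0.143. Without WT replicate 2, or without WT replicate 5, the Cyp2c29 difference was -11.6 bases and passed 0.05 in that test, and without WT replicate 3 it was -4.01 bases and did not pass. The WT lengths of Cyp2c29 ran from 1783 to 1813 bases and the cKO lengths from 1783 to 1784 bases. The WT lengths rest on fewer reads, 43 to 430 counts of Cyp2c29 per library against 962 to 4131 in cKO crypts. The library with 43 counts was WT replicate 3.

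Of the 12 other Cyp2c genes, 5 were listed at 0 counts in all 10 libraries (Cyp2c37, Cyp2c50, Cyp2c54, Cyp2c69 and Cyp2c73-ps). Only Cyp2c23 and Cyp2c70 passed the filter on low counts. Cyp2c23, an epoxygenase best known from the kidney, had 0.716 ± 0.437 CPM in WT crypts and 2.96 ± 1.43 CPM in cKO crypts (SD, n = 5 each). Its log2 fold change of 2.04 ± 0.51 (SE) had an adjusted p of 0.0126 in edgeR's quasi-likelihood test. Its groups did not overlap in CPM, but they nearly touched. The highest WT library, replicate 2, had 1.24 CPM and the lowest cKO library, replicate 3, had 1.26 CPM, both from 36 counts. Cyp2c23 lies outside the cluster, and its level was only 3 counts in WT replicate 4. Cyp2c70, a bile acid hydroxylase, had 1.44 ± 0.343 and 2.04 ± 0.484 CPM, a log2 fold change of 0.50 ± 0.24 (SE) and an adjusted p of 0.138 in that test. Cyp2c67 had 0 to 9 counts in WT and 9 to 18 in cKO libraries and was too low to be tested.

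The genes around the cluster were compared to see whether the difference extended beyond it. No other gene inside the cluster passed the filter on low counts. On its near side, Hells, a chromatin remodeller that dividing cells express, 5.60 kb away, was lower in cKO crypts with 106.7 ± 23.2 and 78.4 ± 9.52 CPM (SD, n = 5 each), a log2 difference of -0.44 and an adjusted p of 0.0296 in edgeR's quasi-likelihood test. Noc3l was also lower, by -0.38 on that scale (adjusted p = 0.0186), and Tbc1d12 between them had 0.01 with an adjusted p of 0.973. The call of Hells was lost without any one of WT replicates 3 and 4 and cKO replicates 1, 4 and 5. On the far side Pdlim1, 33.8 kb away, had -0.18 with an adjusted p of 0.0978 and Aldh18a1 had -0.18 with an adjusted p of 0.152. None of these neighbours passed the threshold as higher.

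The rest of the pathway was read from lists of genes. Together with the other Cyp2c genes they held 78 genes, of which 52 were tested, 27 were higher and 6 lower in cKO crypts, beside 15.6% and 12.7% of all genes. Villus markers were higher in the same libraries, as given above, and their part in these values was not tested.

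Among the CYP2J epoxygenases, the other P450 family that makes these lipids, 2 of the 3 genes tested were higher, beside 15.6% of all genes. Cyp2j6 had 74.6 ± 15 CPM in WT crypts and 208.3 ± 59.9 CPM in cKO crypts (SD, n = 5 each), with a log2 fold change of 1.48 ± 0.21 (SE) and an adjusted p of 0.00137 in edgeR's quasi-likelihood test. Cyp2j9 had 4.15 and 8.32 CPM, a log2 fold change of 1.00 and an adjusted p of 0.00729, and Cyp2j5 had 0.20 and an adjusted p of 0.776. Of 4 epoxide hydrolases, which remove the product, 2 were tested and both passed as higher, while Ephx3 and Ephx4 were too low to be tested. Ephx2, the soluble enzyme, had 149.5 ± 51.4 and 361.8 ± 71.0 CPM, a log2 fold change of 1.27 ± 0.24 (SE) and an adjusted p of 0.00473. Ephx1, the microsomal enzyme, had 30.7 ± 2.69 and 42.7 ± 11.4 CPM with overlapping groups, a log2 fold change of 0.48 and an adjusted p of 0.0345, a call that was lost without any one of WT replicates 1, 2, 4 and 5 or cKO replicates 3 and 5.

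All 5 genes that supply P450 enzymes with electrons or support them were higher, beside 15.6% of all genes. Their log2 fold changes ran from 0.68 to 0.91 with a median of 0.72, beside -0.03 over all genes. Por, the P450 reductase, had 86.4 ± 10.9 and 138.4 ± 16.0 CPM (SD, n = 5 each), which on the log2 scale was a change of 0.68 ± 0.10 (SE) with an adjusted p of 0.00108 in edgeR's quasi-likelihood test. The cytochrome b5 genes Cyb5a and Cyb5b had 0.72 and 0.80, with adjusted p of 0.0153 and 4.38e-04, the cytochrome b5 reductase Cyb5r3 had 0.91 with 0.00258, and the haem-binding Pgrmc1 had 0.72 with 0.00143. For all 5 the groups did not overlap, as in 12% of all genes, although for Cyb5a the highest WT library had 235.1 CPM and the lowest cKO library 235.5 CPM.

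Genes that make or release arachidonic acid went both ways, with 3 of 8 higher, 2 lower and a median log2 change of -0.26. Over all genes 15.6% were higher and 12.7% lower. The desaturases Fads1 and Fads2, which make arachidonic acid from linoleic acid, were lower by log2 fold changes of -0.48 and -0.43, with adjusted p of 0.00923 and 0.00939 in edgeR's quasi-likelihood test. Lpcat3, which places arachidonic acid into phospholipids, was higher by 0.58 with an adjusted p of 0.00258. The phospholipases Pla2g6 and Pla2g4c, which can release fatty acids from phospholipids, were higher by 0.43 and 1.52, with adjusted p of 0.00936 and 0.0180, and Pla2g4a, the cytosolic enzyme best known for releasing arachidonic acid, had -0.26 with an adjusted p of 0.171.

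Of 9 tested genes of enzymes that use arachidonic acid in other ways, 5 were higher and 1 lower, beside 15.6% and 12.7% of all genes. The fatty acid hydroxylases of the CYP4 families led. Cyp4f14 had 125.2 ± 62.9 CPM in WT crypts and 365.9 ± 80.1 CPM in cKO crypts (SD, n = 5 each), with a log2 fold change of 1.55 and an adjusted p of 0.00945 in edgeR's quasi-likelihood test. Cyp4a10 had 1.62 with an adjusted p of 0.00273, Cyp4f16 0.79 with 0.00368 and Cyp4f13 0.67 with 0.00161. Alox5, the leukotriene-forming lipoxygenase, was higher by 0.43 with an adjusted p of 0.0298, and Cyp4f18, low at 0.876 and 0.346 CPM, was lower by -1.34 with an adjusted p of 0.0406. The call of Alox5 was lost without any one of WT replicates 3 and 4 and cKO replicates 1, 3 and 5, and that of Cyp4f18 without any one of WT replicates 1, 3, 4 and 5 and cKO replicates 1, 2, 3 and 4, among the fits that left out 1 animal. Ptgs1, a cyclooxygenase, had -0.06 with an adjusted p of 0.732, and Ptgs2 was too low to be tested.

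**Figure D4:**
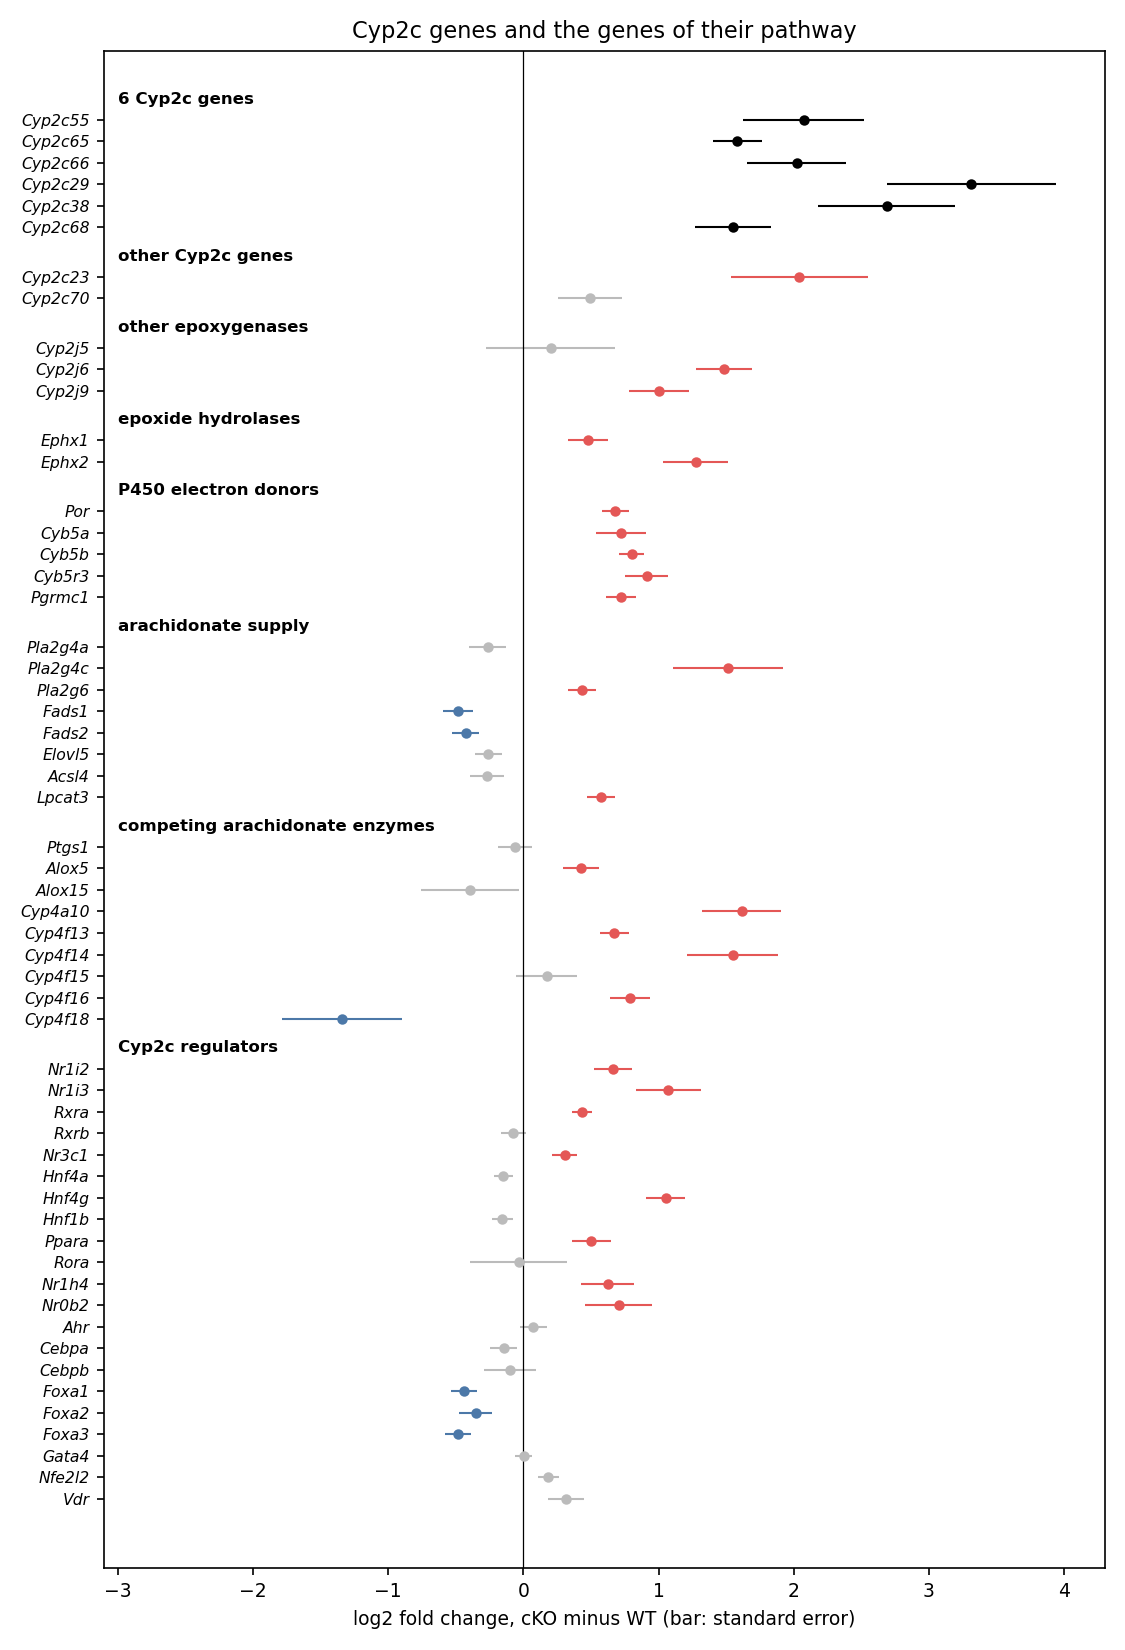
Log2 fold change, cKO minus WT, with its standard error as a bar, for the 6 Cyp2c genes (black, described only) and the reported genes of the pathway lists, red where higher and blue where lower past an adjusted p of 0.05, grey otherwise. The 6 genes run from 1.55 to 3.31, the 5 electron donors from 0.68 to 0.91, and the regulators spread to both sides of 0.

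Transcription factors and receptors known to regulate Cyp2c genes did not move one way. Of 23 tested, 9 were higher and 3 lower, beside 15.6% and 12.7% of all genes, with a median log2 fold change of 0.10. The share of lower genes was near that over all genes. Hnf4g, an HNF4 gene, had 99.4 ± 17.2 CPM in WT crypts and 206.1 ± 40.4 CPM in cKO crypts (SD, n = 5 each). Its log2 fold change was 1.05 ± 0.14 (SE), and the adjusted p was 9.26e-04 in edgeR's quasi-likelihood test. Hnf4a, the more abundant HNF4 gene in these crypts, had 1151 ± 68.2 and 1040 ± 44.3 CPM, -0.15 and an adjusted p of 0.120. The xenobiotic receptors Nr1i2 (PXR) and Nr1i3 (CAR) were higher by 0.66 and 1.07, with adjusted p of 0.00610 and 0.00936, and their partner Rxra by 0.43 with an adjusted p of 0.00188.

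The glucocorticoid receptor Nr3c1 was higher by 0.31 and Ppara, a fatty acid receptor, by 0.50, with adjusted p of 0.0256 and 0.0226 in edgeR's quasi-likelihood test. The bile acid receptor Nr1h4 and its target Nr0b2 were higher by 0.62 and 0.70, with adjusted p of 0.0337 and 0.0493. The forkhead factors Foxa1, Foxa2 and Foxa3 were lower by -0.44, -0.35 and -0.48, with adjusted p of 0.00678, 0.0460 and 0.00369. The calls of Nr3c1, Ppara, Nr1h4, Nr0b2 and Foxa2 were each lost without WT replicate 4 and again without cKO replicate 5, and some were lost without other animals too. Over the whole list either of these fits left 6 of the 23 genes past the threshold. Gata4 had 0.00 with an adjusted p of 0.985.

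Genes whose profile over the 10 libraries was most like that of Cyp2c29 were ranked by the root mean square difference of log2 CPM, each centred on its own mean, over 9204 genes with a mean of at least 10 CPM. Ifit1bl2 came first with 0.696, followed by Pck1, the gluconeogenic PEP carboxykinase, with 0.715, Pdk4, a pyruvate dehydrogenase kinase induced in fasting, with 0.728, Slc5a4a, of the sodium-glucose cotransporter family, with 0.747, and Muc3, a membrane mucin of enterocytes, with 0.753. The nearest other Cyp2c gene, Cyp2c55, was less like it, with 0.824. The summed family was matched far more closely, by Iyd, an iodotyrosine deiodinase, with 0.107, Ugt2b5, a glucuronosyltransferase of drug metabolism, with 0.129, Ces2c, a carboxylesterase, with 0.176, Emp1 with 0.177 and Gm8909 with 0.188. Distances of the 6 genes themselves from the sum ran from 0.179 for Cyp2c66 to 0.934 for Cyp2c29, with Cyp2c38 at 0.391. The sum contains these genes, so the abundant ones lie near it by construction. These distances describe the 10 libraries and include the difference between genotypes.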

How the data were processed

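Polyadenylated RNA of jejunal crypts was sequenced as 1 library per animal (5 WT, 5 cKO). The authors processed the reads with STAR and RSEM on GRCm38 and deposited per library, for 54838 genes, the expected count, the TPM and FPKM and the RSEM lengths. RSEM divides reads that match several genes. The strand setting is not given in the sources used here. The FPKM values the authors deposited were not used, and the deposited TPM served to compare genes per length.

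Expected counts were rounded and fitted in R 4.3.3 with edgeR 4.0.16 (filterByExpr with a minimum count of 10, minimum total 15, TMM, robust glmQLFit and glmQLFTest, Benjamini-Hochberg over 14719 genes, threshold 0.05). SE was taken from the same fit, as the log2 fold change divided by the root of its F. Alternatives used limma 3.58.1 and DESeq2 1.42.0, other scalings and filters, a replicate block, and each animal left out. The fit was tested on simulated data. IDs without a symbol took at most 0.0215% of the counts. Totals of 27050455 to 31053622 counts make genes below 1 CPM imprecise, and intervals between animals include counting error.

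The members and all gene lists were chosen with earlier results of these data known. Named genes were the 6 members, other Cyp2c genes with at least 10 counts in 1 library, genes past the threshold in the pathway lists with others a sentence needed, the tested neighbours of the cluster and the 5 most alike profiles. The marker lists of villus enterocytes, hepatocytes, crypt base, Paneth, colon, ileum, proximal, immune and stromal cells are given by counts and sums. The ratio to the villus markers was added after the data were seen. A few genes of the lists are not reported here by name.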

Additional observations from a re-analysis of the deposited data

Results flagged for a closer look

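Groups of 5 animals were screened for a lone value, 116 groups in all over the 6 Cyp2c genes, their sum and the named genes, and chance flags about 1 in 20 groups. No group of the 6 Cyp2c genes or of their sum was flagged, and 3 groups of other genes were. Cyp2c70 had 1.18 CPM in cKO replicate 1, the lowest cKO library, where the next had 2.14 CPM. Without that library its log2 fold change was 0.64 and passed the threshold in edgeR's quasi-likelihood test. Pla2g4c had 3.60 CPM in WT replicate 5, the highest WT library, where the next had 1.81 CPM. Hnf4g had 275.6 CPM in cKO replicate 5, the highest cKO library, where the next had 201.5 CPM, and it stayed past the threshold in every fit that left out 1 animal.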

How the results depend on the processing

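The log2 fold changes of the 6 Cyp2c genes and their sum were positive under all 146 alternatives run, and 144 moved by less than 1 SD between animals. The other 2 were Cyp2c38 on deposited TPM, with 1.98 at a pseudocount of 0.1 and 0.72 at 1. With 1 animal left out, the ranges were 2.88 to 3.81 for Cyp2c29, 2.45 to 3.09 for Cyp2c38, 1.87 to 2.39 for Cyp2c55, 1.48 to 1.75 for Cyp2c65, 1.84 to 2.31 for Cyp2c66, 1.38 to 1.79 for Cyp2c68, 1.72 to 2.07 for the sum, -11.6 to -4.01 bases for the Cyp2c29 length difference, which passed the threshold without WT replicate 2 or 5 and was smallest without WT replicate 3, 3007 to 4684 for the genes past the threshold (4167 with all animals), and 24 to 34 for the pathway and other Cyp2c genes past it (33 with all).

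Same-numbered WT and cKO libraries did not deviate together (r from -0.212 to 0.0947 over the 5 numbers), so the numbers were not taken as pairs. With the number as a replicate block the sum gave 1.92, Cyp2c29 3.38 and 3052 genes passed, 1861 higher and 1191 lower, against 2298 and 1869, and Cyp2c23 (2.04) lost its call. With scaling by the library size alone, the median over all genes went from -0.03 to -0.16 and the split became 1541 higher and 4030 lower, with the sum at 1.74. The lower calls numbered 1131 without WT replicate 4. For the 51 named genes outside the family, 864 of 966 alternatives kept the call, 93 lost it, 9 gained it and none reversed. Cyp2c23 was not tested where at least 10 counts were required in every library. Depth limits Cyp2c38 and the other low Cyp2c genes.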
